A study of Mus musculus with 64 samples.

Results

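The regenerating islet-derived genes Reg1, Reg2, Reg3a, Reg3b, Reg3d and Reg3g were followed in the pancreas of F2 mice of a cross of TALLYHO/JngJ with C57BL/6J mice. They were taken by name, as the probe sets that the array annotation assigns to that gene and to no other. This gave 7 probe sets for the 6 genes, of 45037 probe sets without controls, and where a gene had more than 1 the probe set of highest mean was used. Reg3b was the only member with more than 1 probe set. All mice were males on standard chow, killed at 24 weeks of age. The 8 high triglyceride mice came from the upper tail and the 8 low triglyceride mice from the lower tail of plasma triglyceride of the F2 males, and overtly diabetic mice had been left out. Liver, muscle, pancreas and adipose tissue of each mouse were hybridized to Affymetrix Mouse Genome 430 2.0 arrays, which gave 64 arrays, 16 of them pancreas. The whole pancreas was homogenized, so each value is a mean over acinar, islet, duct and other cells, and fewer cells of a type cannot be told apart from less RNA per cell. The expression values are log2 values made with gcRMA, in which a difference of 1 is a 2-fold difference.

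Reg proteins are small secreted proteins with a C-type lectin fold. In the pancreas they are products mainly of the acinar cells, which also make the digestive enzymes, and they are known for a strong increase in pancreatitis and during islet regeneration. In the intestine, several of the Reg3 proteins are antibacterial lectins. Cytokines that signal through gp130 or the interleukin 22 receptor and STAT3 are known to induce Reg3 genes.

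The 6 genes lie together on chromosome 6 (RefSeq, GRCm38.p6), in the order Reg3b (78370885-78373466), Reg3d (78375874-78378865), Reg3a (78380709-78383839), Reg2 (78405155-78408099), Reg1 (78425983-78428668) and Reg3g (78466269-78468874). Reg3b and Reg3d are 2407 bases apart and transcribed towards each other, Reg3b from the plus strand and Reg3d from the minus strand. The 250 bases before the annotated start are printed here, 5′ to 3′, for the genes the results turn on, namely Reg1 and Reg2, which sit at the top and the middle of the expression range, and Reg3b and Reg3d, whose difference on the same array is described further on. Capitals mark matches on either strand to 4 motifs: TATAAA (the TATA box), CACCTG (an E-box) and TTTCCC, which are parts of known binding sites of the acinar factor PTF1, and TTCNNNGAA, the known binding motif of STAT factors.
Reg1 (chr6:78425733-78425982, plus strand): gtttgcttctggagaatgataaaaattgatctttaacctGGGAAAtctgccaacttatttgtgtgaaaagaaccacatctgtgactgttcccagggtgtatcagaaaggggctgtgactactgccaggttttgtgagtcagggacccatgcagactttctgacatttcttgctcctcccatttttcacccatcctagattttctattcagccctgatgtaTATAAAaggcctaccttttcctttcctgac
Reg2 (chr6:78404905-78405154, plus strand): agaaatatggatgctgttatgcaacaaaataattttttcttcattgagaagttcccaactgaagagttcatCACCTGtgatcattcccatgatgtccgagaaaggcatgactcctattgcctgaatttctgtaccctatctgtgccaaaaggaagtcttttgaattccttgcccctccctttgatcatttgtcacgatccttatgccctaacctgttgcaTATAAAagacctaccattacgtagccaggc
Reg3b (chr6:78370635-78370884, plus strand): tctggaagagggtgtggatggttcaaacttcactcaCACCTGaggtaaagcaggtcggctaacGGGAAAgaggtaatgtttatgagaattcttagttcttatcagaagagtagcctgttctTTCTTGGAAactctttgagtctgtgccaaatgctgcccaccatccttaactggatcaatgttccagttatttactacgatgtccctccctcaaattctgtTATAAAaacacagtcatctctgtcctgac
Reg3d (chr6:78378866-78379115, minus strand): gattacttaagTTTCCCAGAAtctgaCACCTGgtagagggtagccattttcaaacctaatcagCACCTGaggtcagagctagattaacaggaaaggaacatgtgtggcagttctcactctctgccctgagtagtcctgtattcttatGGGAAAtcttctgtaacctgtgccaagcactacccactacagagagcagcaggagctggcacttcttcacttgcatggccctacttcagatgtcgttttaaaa

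TATAAA lay from -30 to -25 in Reg1 and Reg2, counting the base before the start as -1, from -29 to -24 in Reg3b, and from -27 to -22 in Reg3g, which also holds it on the minus strand from -161 to -156. It was in neither Reg3a nor Reg3d, and 13.0% of the 27025 promoter windows of the same length in the table hold it. CACCTG was in Reg2, Reg3a, Reg3b and Reg3d, against 17.1% of all windows, and Reg3d held a match from -224 to -219 and another from -187 to -182. TTTCCC was in Reg1, Reg3b, Reg3d and Reg3g, against 21.9%. Of the members Reg3b and Reg3d held both within 30 bases of each other, 21 bases apart in Reg3b and 9 in Reg3d, as did 0.910% of all windows. TTCNNNGAA was in Reg3b, from -129 to -121, and in Reg3d, where it runs from -238 to -230 and overlaps TTTCCC, and 7.18% of all windows hold it. In a global alignment of these windows, Reg3b and Reg3g were the most alike of the 15 pairs, with 68.4% identical columns, and the other pairs had 43.9 to 54.4%. Reg3b and Reg3d had 50.2%. These matches describe letters and no binding was measured.

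The members were all expressed in the pancreas, at levels far apart. Reg1, the pancreatic stone protein, averaged 15.90 and ranked 29th of 45037 probe sets, at the level of the digestive enzymes. Reg3b, the pancreatitis-associated protein, averaged 12.51, Reg2, the close relative of Reg1 in mouse, 11.93, and Reg3d, which is related to the islet neogenesis-associated protein of hamster, 11.11. Reg3a averaged 7.34 and Reg3g, an antibacterial lectin in the intestine, 5.96. The ranges of Reg3b, Reg2 and Reg3d overlapped, as did those of Reg3a and Reg3g, and since probe sets bind with different strength these levels of different genes are only a rough order. Reg4, the family member outside this cluster, was between 3.26 and 3.89. Outside the pancreas, 272 of the 288 values of the members on 48 arrays were within 0.001 of the lowest value of their tissue, and the highest was 3.78 for Reg1 in the adipose tissue of low triglyceride replicate 4. On the pancreas arrays all 21 measured acinar genes averaged at least 10.66, and Ins2, encoding insulin, averaged 14.22.

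**Figure D1:**
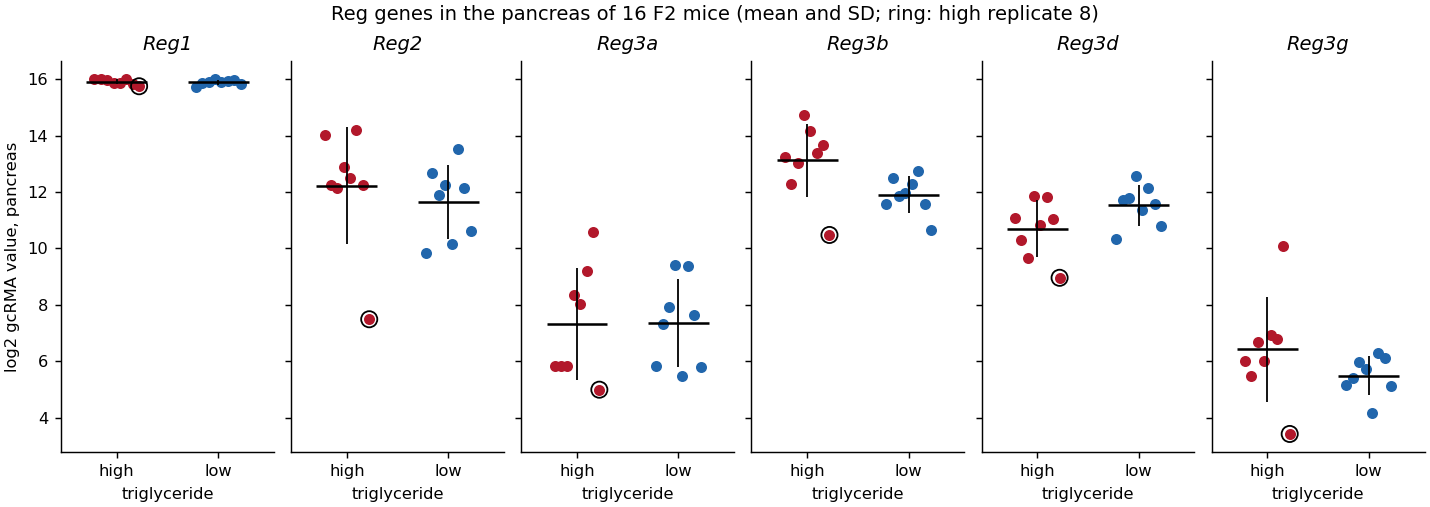
Log2 gcRMA value of each Reg gene (highest-mean probe set) in the pancreas of 8 high and 8 low triglyceride mice, 1 point per mouse, with the mean (line) and SD (bar) of each group and a ring on high triglyceride replicate 8. Reg1 lies between 15.71 and 16.01 in all mice, and the ringed mouse is the lowest of the 16 in each of the other 5 genes.

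Apart from Reg1, the members were among the most variable transcripts of the pancreas. The SD over the 16 mice was 1.72 for Reg3a, 1.70 for Reg2, 1.44 for Reg3g, 1.18 for Reg3b and 0.95 for Reg3d, where the median SD of the 10280 probe sets with a mean of at least 4 was 0.26. By SD these genes ranked 18th, 19th, 31st, 58th and 115th of 45037. Between the lowest and the highest mouse, Reg2 differed 105-fold, Reg3g 101-fold, Reg3a 47.7-fold, Reg3b 19.1-fold and Reg3d 12.1-fold. The first 2 of these rested on 1 mouse each, as Reg2 differed 20.9-fold without high triglyceride replicate 8 and Reg3g 11.5-fold without high triglyceride replicate 7. The median absolute deviation, scaled to the SD, was 0.78 for Reg2 and 0.95 for Reg3g. Reg1 had an SD of 0.093 and differed 1.23-fold, where the 27 probe sets within 0.5 of its mean had a median SD of 0.064. The highest value of any pancreas probe set was 17.51, and since the spread is small for all probe sets near the top of the scale, the low SD of Reg1 does not show that its transcript was stable. The 2 probe sets of Reg3b followed each other closely across mice (r = 0.990, permutation p = 1e-05, the smallest the resampling can give). Reg3a was listed at the same value, 5.85, in 4 arrays, and these 4 have no order among themselves.

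**Figure D2:**
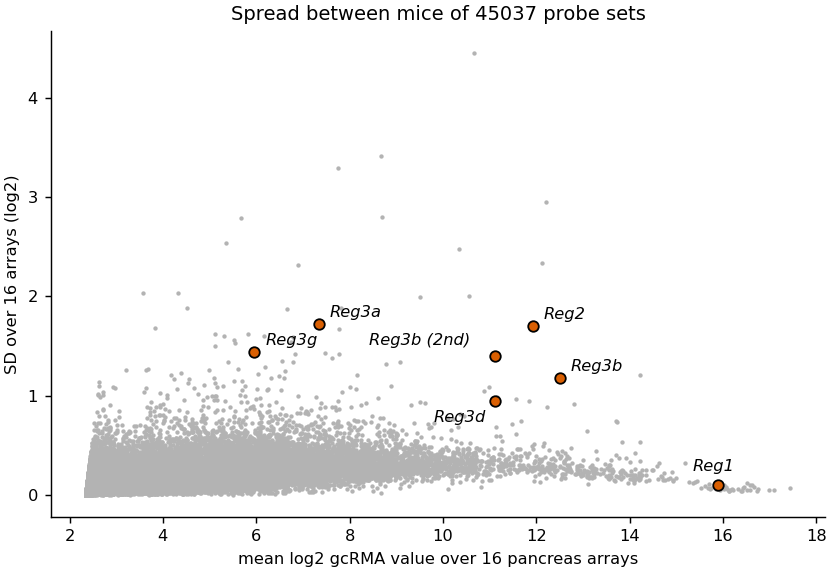
SD against mean log2 value of 45037 probe sets over the 16 pancreas arrays, with the 7 probe sets of the Reg genes in orange. Reg2, Reg3a, Reg3b, Reg3d and Reg3g stand above most probe sets of like mean, and Reg1 lies among the most abundant transcripts with an SD of 0.093.

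The same mice stood at the extremes in several members. High triglyceride replicate 8 was the lowest of the 16 mice in Reg2, Reg3a, Reg3b, Reg3d and Reg3g and 15th in Reg1. Its Reg2 value was 7.49, and the next lowest mouse of its group was at 12.13. This array was the highest of the 16 in the mean z-score of 21 acinar genes described further on, at 0.77, and its Ins2 value was 14.54. The part of this in its Reg levels was not tested. High triglyceride replicate 7 was the highest in Reg3a, at 10.57, and in Reg3g, at 10.09. High triglyceride replicate 6 and low triglyceride replicate 6 were above the mean in all 6 genes. High triglyceride replicate 8 and low triglyceride replicates 1 and 8 were below the mean in all 6.

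The comparison of high with low triglyceride mice asked whether the members differed between these groups. In the paper the high triglyceride mice also had heavier fat pads in sum, and more cholesterol at some ages. A difference with triglyceride therefore cannot be told apart from one with these traits. None of the 6 passed limma with Benjamini-Hochberg adjustment over all probe sets, and neither did any other probe set of the pancreas, so that 0% were called. At an unadjusted p under 0.05 there were 1003 probe sets (2.23%), Reg3b among them. None of the members had groups that did not overlap, which 0.00444% of all probe sets had.

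Reg3b showed the largest difference of the family. It ran from 10.48 to 14.74 in the high triglyceride mice, with a median of 13.30, and from 10.66 to 12.76 in the low triglyceride mice, with a median of 11.92. Of the 8 high triglyceride mice, 6 were above every low triglyceride mouse, and the lowest mouse of all was high triglyceride replicate 8. The means were 13.12 ± 1.30 in high and 11.90 ± 0.65 in low triglyceride mice (SD, n = 8 each), a difference of 1.22 on the log2 scale, or 2.33-fold, with a 95% interval of 0.14 to 2.31. The adjusted p was 0.795 (limma, unadjusted p = 0.0299), and the exact two-sided permutation test gave p = 0.0339. The difference was 1.57 in the other probe set of the gene (limma adjusted p = 0.795), at the top of all 45037 probe sets for differences above 0. Without high triglyceride replicate 8 the difference was 1.60, and in 1 fit over all 64 arrays the adjusted p was 0.0198. That fit takes the spread from all tissues, and outside the pancreas Reg3b had almost none.

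Reg3d, the neighbour of Reg3b, differed in the other direction. It ran from 8.96 to 11.86 in high triglyceride mice (median 10.93) and from 10.32 to 12.56 in low triglyceride mice (median 11.63). The means were 10.70 ± 1.01 in high and 11.53 ± 0.72 in low triglyceride mice (SD, n = 8 each), a difference of -0.83 with a 95% interval of -1.76 to 0.09, which did not pass the test (limma adjusted p = 0.795, exact permutation p = 0.0793). The groups overlapped over most of their range.

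Reg3g ran from 3.43 to 10.09 in high triglyceride mice (median 6.35) and from 4.16 to 6.29 in low triglyceride mice (median 5.57). Its mean difference of 0.93 had a 95% interval of -0.55 to 2.41 (limma adjusted p = 0.795, exact permutation p = 0.221). This difference was 0.41 without high triglyceride replicate 7 and 1.36 without high triglyceride replicate 8, so its size depended on which mouse was left out. Reg2 ran from 7.49 to 14.21 in high triglyceride mice (median 12.39) and from 9.82 to 13.53 in low triglyceride mice (median 12.02). Its difference of 0.58 had a wide 95% interval of -1.25 to 2.41 (limma adjusted p = 0.795, exact permutation p = 0.532), and was 1.25 without high triglyceride replicate 8. Reg3a had medians of 6.93 in high and 7.49 in low triglyceride mice and a mean difference of -0.02, with an interval of -1.90 to 1.86 (limma adjusted p = 0.991). Reg1 had medians of 15.93 in high and 15.90 in low triglyceride mice, and a difference of 0.03 with an interval of -0.07 to 0.13 (limma adjusted p = 0.795). The intervals of Reg2, Reg3a and Reg3g left room for large differences in either direction, and that of Reg1 was narrow as for other probe sets near the top of the scale.

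In liver, muscle and adipose tissue no member was called, as 0 of all probe sets were in limma. At an unadjusted p under 0.05 there were 3.83% of all probe sets in liver, 4.1% in muscle and 4.62% in adipose tissue, no member among them. As nearly all values of the members in these tissues were at the lowest value, this outcome was all but settled in advance. The contrast of the pancreas was not shown to differ from theirs, with a lowest adjusted p of 0.216 for Reg3b against adipose tissue (limma interaction). That interaction, 1.22 on the log2 scale, only repeats the difference of Reg3b in the pancreas.

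Relative to each other, Reg3b and Reg3d separated the triglyceride groups. On the same array Reg3b exceeded Reg3d by 1.52 to 3.37 in high triglyceride mice, with a median of 2.38, and differed from it by -0.60 to 1.26 in low triglyceride mice, with a median of 0.35. All 8 high triglyceride mice were above all 8 low triglyceride mice. The mean difference between the genes was 2.43 ± 0.74 in high and 0.37 ± 0.63 in low triglyceride mice (SD, n = 8 each). The ratio of Reg3b to Reg3d was thus 4.15 times as high in high as in low triglyceride mice. This contrast of 2.05 on the log2 scale had an exact two-sided permutation p of 0.000155, the smallest that 8 against 8 mice allow. This pair was picked from the 15 pairs of members after their values were seen, so the p is not that of a test planned for it. No other of the 15 differences separated the groups, and 4 of them had an exact permutation p under 0.05. The next lowest was that of Reg3d and Reg3g (exact permutation p = 0.00373), where Reg3g was 4.27 ± 1.62 below Reg3d in high and 6.03 ± 0.69 below it in low triglyceride mice.

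Other transcripts were looked at in the same way. Set against Reg3d on the same array, 3 of 45036 probe sets (0.00666%) had groups that did not overlap, namely both probe sets of Reg3b and 1 of Cdkn1a, the cell cycle inhibitor p21. Set against Reg3b, 2 probe sets did so (0.00444%), Reg3d and Vapb, a membrane protein of the endoplasmic reticulum. Cdkn1a is named here after its value was seen. Reg3b in the first set and Reg3d in the second were settled in advance, as the pair was picked after its values were seen. The probe sets of Reg3b follow each other closely. Only 10280 probe sets averaged at least 4. A probe set with almost no spread only mirrors Reg3d or Reg3b, whose own groups overlap, so it could hardly pass. The percentages therefore do not show how rare such a separation is among expressed transcripts. With the other probe set of Reg3b the contrast was 2.41, after quantile normalization 2.03, and the groups did not overlap in either. With each array left out in turn the contrast was between 1.91 and 2.18. Low triglyceride replicates 3 and 8 had the highest summed levels of the immune genes (70.1 and 63.1) and fat genes (44.9 and 44.0) described further on. Ptprc was at 4.13 and 3.08 in them, and Ms4a1 at 4.31 and 2.35. The mean z-score of the immune genes was lowest in replicate 8, at -0.64. That score gives full weight to Cd68, Cd14, Cd3e, Cd3g and S100a9, which averaged 2.35 with an SD of 0.0002. It therefore does not show that replicate 8 had few immune transcripts. Without these 2 mice the contrast was 1.92 (exact permutation p = 0.000666). Groups that do not overlap cannot come to overlap when mice are left out, so a low p was settled in advance.

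**Figure D3:**
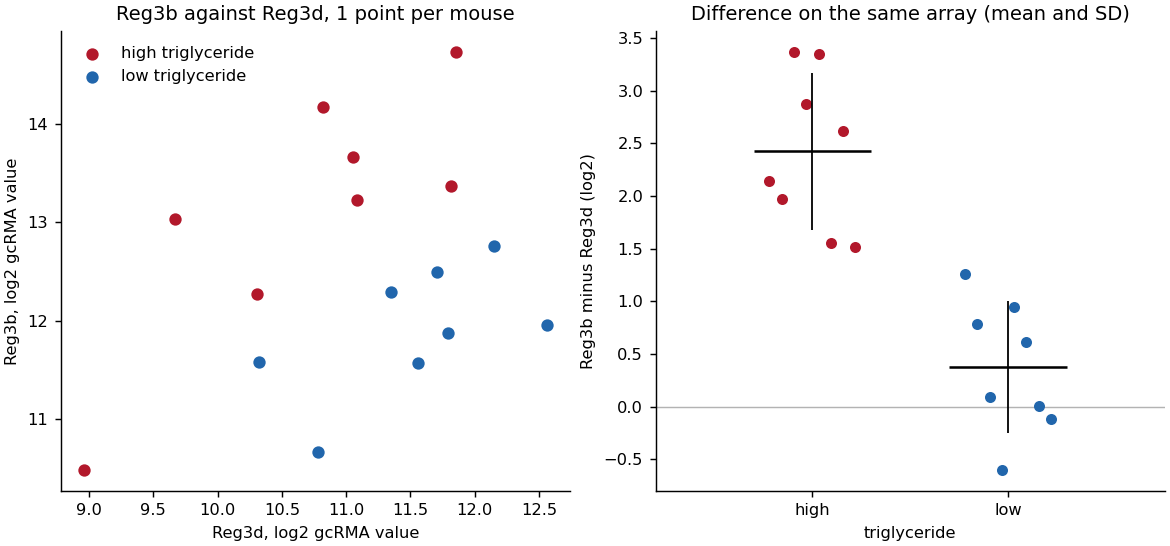
Left, log2 value of Reg3b against that of Reg3d in the pancreas, 1 point per mouse, and right, Reg3b minus Reg3d on the same array in 8 high and 8 low triglyceride mice, with the mean (line) and SD (bar). The r of both genes is 0.821 within high triglyceride mice, which include replicate 8, the lowest mouse in both, and 0.584 within low triglyceride mice. On the right, the high triglyceride mice lie above the low triglyceride mice, from 1.52 upward against at most 1.26.

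Across the 16 mice most pairs of members were positively related. All 15 pairs had a Pearson r above 0, from 0.230 to 0.733 with a median of 0.577, and 9 pairs had an r of at least 0.5 and a permutation p under 0.05. Among 6404 other genes with a mean of at least 4, an r of at least 0.5 was reached with Reg1 by 10.8%, with Reg3b by 3.87% and with each of the other members by 1.20 to 1.37%. The other 6 pairs did not pass, and among them Reg1 had an r of 0.246 with Reg3a, 0.304 with Reg3b and 0.230 with Reg3g, where its median r with the 6404 genes was 0.209. The closest pair was Reg3a and Reg3g (r = 0.733, rho = 0.729, permutation p = 0.00037 and 0.00213), which lie 82429 bases apart, and of 6409 genes ranked by r with Reg3a, Reg3g stood at the top. Reg1 and Reg2 had an r of 0.710 (rho = 0.587, permutation p = 0.00194 and 0.0191), and Reg3a and Reg3d an r of 0.694 (rho = 0.695, permutation p = 0.00258 and 0.00339). Reg2 had r from 0.577 to 0.692 with the Reg3 genes, and from 0.378 to 0.582 without high triglyceride replicate 8.

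This relation rested in part on 1 mouse. Without high triglyceride replicate 8, the lowest in 5 members, 5 of 15 pairs had an r of at least 0.5, the median r was 0.395 and the lowest -0.049, and 14 pairs were above 0. Without the 2 mice farthest from the median of the gene named first, Reg3a and Reg3d had an r of 0.789, Reg3b and Reg3g 0.623, Reg3a and Reg3g 0.541, Reg1 and Reg2 0.456 and Reg2 and Reg3d 0.255. In that setting 4 of the 15 pairs were below 0, down to -0.126 for Reg1 and Reg3g, and the median was 0.327. Within the high triglyceride mice 14 of 15 pairs had an r above 0, and within the low triglyceride mice all 15 did. Reg3a and Reg3g had an r of 0.819 within high and 0.816 within low triglyceride mice, and Reg2 and Reg3d 0.822 within high and 0.812 within low. Reg3b and Reg3d had an r of 0.321 over all mice (permutation p = 0.226), but 0.821 within high and 0.584 within low triglyceride mice, and 0.750 with the group means removed. The low pooled r goes with the opposite differences of these 2 genes between the groups. The r of pairs within high triglyceride mice, and with the group means removed, include high triglyceride replicate 8. They were not computed without it. Over all mice without it, Reg3b and Reg3d had an r of 0.061.

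**Figure D4:**
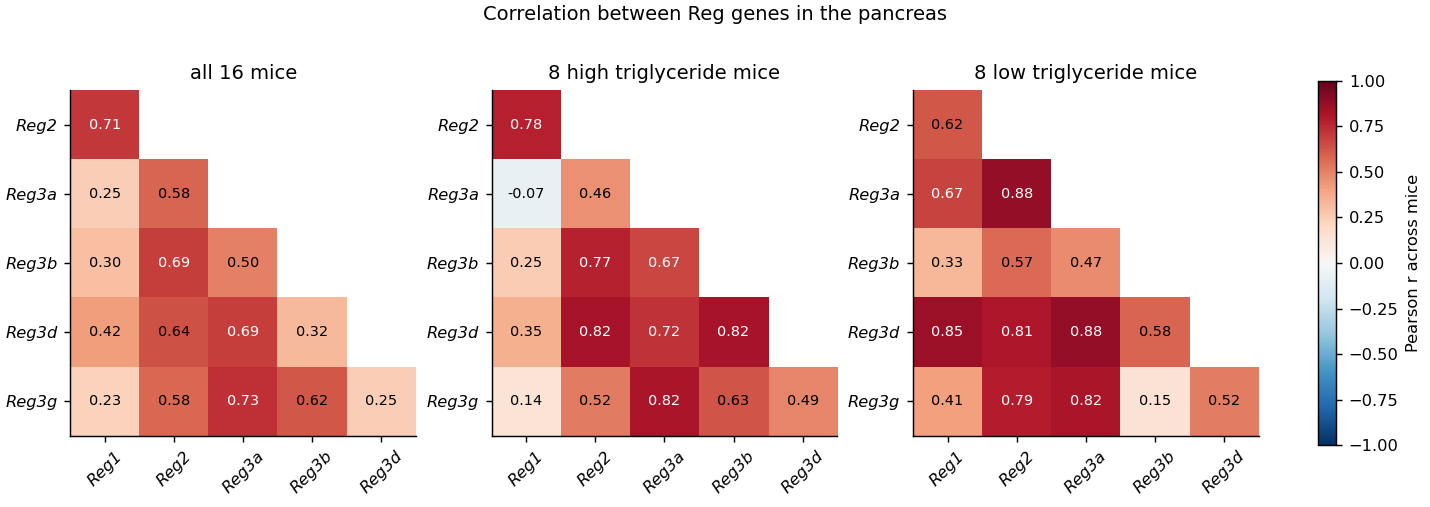
Pearson r between Reg genes across all 16 mice, the 8 high triglyceride mice and the 8 low triglyceride mice, 1 square per pair. Reg3b and Reg3d have 0.32 over all mice but 0.82 within high and 0.58 within low triglyceride mice. The value of 0.82 includes high triglyceride replicate 8, the lowest mouse in both genes.

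The members were then set against acinar and islet genes, to see whether their spread followed the share of these cells in the tissue. An acinar score (mean z-score of 21 genes of digestive enzymes and other secreted acinar proteins) and an islet score (21 genes of hormones, granules and islet factors) were used, which gave 12 relations. No member had a permutation p under 0.05 with the acinar score. Its r was 0.274 with Reg1, 0.188 with Reg3b, 0.071 with Reg3g, -0.004 with Reg3a, -0.113 with Reg2 and -0.289 with Reg3d, with rho from -0.162 to 0.182 and permutation p from 0.278 to 0.986. In a limma fit of this score 0.0577% of all probe sets passed as higher and 0.0422% as lower with it, no member among them. Within the high triglyceride mice all 6 r were below 0, from -0.668 to -0.355, and within the low triglyceride mice all 6 were above 0, from 0.039 to 0.657. The values within the high triglyceride mice leaned on replicate 8, the highest in the score, and without it they were between -0.327 and 0.081. Of the 21 genes 20 averaged at least 14, near the top of the scale, 18 had an SD under 0.2 and the median SD was 0.074, so the score rests mostly on genes with little spread. The other 3 were Cuzd1 (SD 0.247), Ctrc, a chymotrypsin, with values from 12.39 to 15.30, and Prss3, a trypsinogen, with values from 3.89 to 14.76. The paper lists Ctrc in the pancreas as a putative cis-acting transcript, with higher expression in TALLYHO/JngJ than in C57BL/6J mice. The part of genotype in the spread of these genes was not tested. Prss3 was the acinar gene of highest r with Reg2, Reg3a, Reg3d and Reg3g, at 0.559 for Reg3a.

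With the islet score all 6 r were above 0. Of its 21 genes 9 averaged under 4, several of them near the lowest value, and these enter the z-score like the others. Reg3a had an r of 0.568 (permutation p = 0.0222, rho = 0.489, permutation p = 0.0563), which was 0.415 without the 2 mice farthest from the median score and 0.542 within high and 0.727 within low triglyceride mice. With only the islet genes of a mean of at least 8 it was 0.457 and had a permutation p above 0.05. Reg3g had an r of 0.458 (permutation p = 0.0736) and a rho of 0.640 (permutation p = 0.0079). Reg1, Reg2, Reg3b and Reg3d had r from 0.109 to 0.318. In a limma fit of the score over all probe sets, the adjusted p was 0.652 for Reg3a and 0.653 for Reg3g, and 0.0178% of all probe sets passed as higher with the score, no member among them. Of the 12 islet genes with a mean of at least 4, 11 had an r above 0 with Reg3a, up to 0.613 for Scg5, a secretory granule chaperone. Reg1 was highest with Gcg, encoding glucagon, at 0.651. Scg2, encoding a secretogranin of hormone granules, averaged 8.73 in high and 7.59 in low triglyceride mice (limma adjusted p = 0.795). The median difference of the 12 islet genes with a mean of at least 4 was 0.46, beside 0.04 for all probe sets of that mean, and 0 of them were called. With the islet score as a covariate the difference of Reg3b between the groups was 1.12 (limma adjusted p = 0.950), that of Reg3d -1.07, of Reg3g 0.52, of Reg2 0.21 and of Reg3a -0.88.

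**Figure D5:**
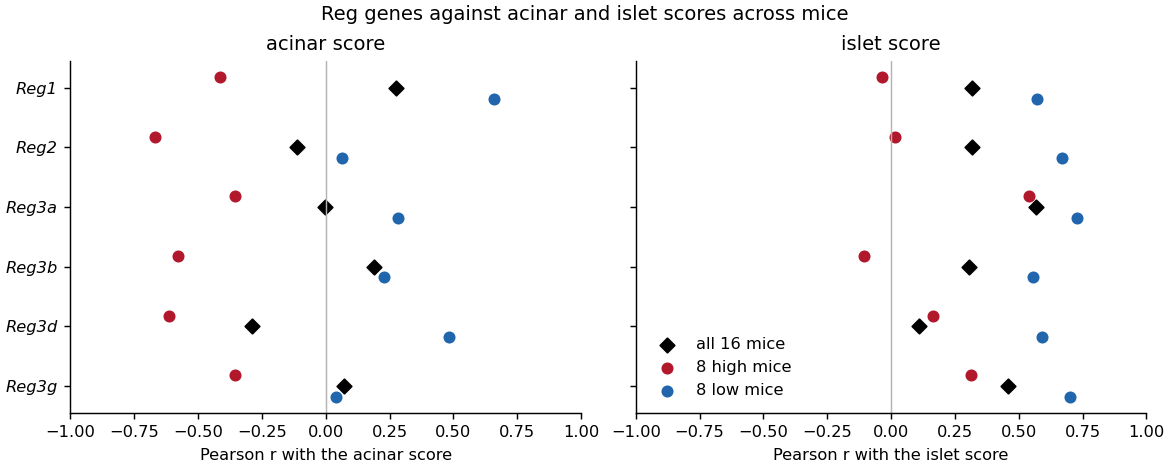
Pearson r of each Reg gene with the acinar score (left) and the islet score (right) across all 16 mice (diamonds), the 8 high triglyceride mice (red) and the 8 low triglyceride mice (blue). With the acinar score all red points are below 0 and all blue points above it, where the red points lie between -0.327 and 0.081 without high triglyceride replicate 8, and with the islet score Reg3a has the highest r over all mice, 0.568.

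A list of Reg signalling, with receptors, cytokines and signal carriers known upstream of Reg genes and with Reg4, gave no call. Of its 20 genes 18 were on the array and 9 averaged at least 4, and 0 of them passed limma in either direction, where 0% of all probe sets did. The median difference of these 9 genes was 0.03, beside 0.04 for all probe sets with a mean of at least 4. Extl3, a proposed Reg receptor, averaged 8.49 in high and 8.55 in low triglyceride mice. Stat3 averaged 7.27 in high and 6.83 in low triglyceride mice (limma adjusted p = 0.795), and its r was above 0 with all 6 members, from 0.249 with Reg3g to 0.548 with Reg2. Il22ra1, a subunit of the interleukin 22 receptor, averaged 5.27 in high and 5.16 in low triglyceride mice, and had the lowest r of the list with Reg2, Reg3a, Reg3b and Reg3d, down to -0.442. The cytokine genes Il6, Il11 and Osm were at or near the lowest value. Of 19 genes of acute pancreatic injury, 7 averaged at least 4 and 0 were called, and Lcn2, Saa1, Hp and Timp1 were at 2.35, the lowest value of the tissue. Tff2 and Clu were high in all mice, with Tff2 at 14.65 in high and 14.58 in low triglyceride mice. Of 12 genes of endoplasmic reticulum stress 0 were called. Of the 11 with a mean of at least 4, only 4 had an r above 0 with Reg3b. These r ran from -0.393 for Ddit3 to 0.641 for Herpud1, with a median of -0.035, and the score of the list had an r of 0.047 with Reg3b. In all, 66 relations of the 6 members to the scores of 11 lists were computed, of which 5 had a permutation p of r under 0.05, unadjusted for their number. Besides Reg3a with the islet score, these were Reg1 with 6 acinar regulators (r = 0.524, permutation p = 0.0377) and with endoplasmic reticulum stress (r = 0.507, permutation p = 0.0455), and Reg3b with acute injury (r = 0.569, permutation p = 0.0211) and with Reg signalling (r = 0.507, permutation p = 0.0442). Without the 2 mice farthest in the score, Reg3b had an r of 0.022 with acute injury and 0.299 with Reg signalling. In that setting Reg1 had 0.681 with acinar regulators and 0.511 with endoplasmic reticulum stress. Most acute injury genes averaged under 4, several of them near the lowest value, and these enter the z-score like the others. With the summed level of the list genes instead, Reg3b had an r of 0.209 with acute injury and 0.528 with Reg signalling. Reg1 then had 0.51 with acinar regulators and 0.495 with endoplasmic reticulum stress.

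Markers of other cells were also looked at. Reg3b and Reg3g are made in intestine, and of 15 measured intestinal genes 12 averaged under 4, with Vil1, Fabp2, Cdh17, Lct, Alpi and Muc2 at 2.35, while Lyz1 averaged 8.33, Muc13 4.78 and Tff3 4.70. The summed level of the 15 genes was 45.3 to 46.9 in high and 45.4 to 47.6 in low triglyceride mice. Of 18 immune genes 4 averaged at least 4, and Cd68, Cd14, Cd3e, Cd3g and S100a9 were at 2.35. Their sum was 53.7 to 57.2 in high and 53.5 to 70.1 in low triglyceride mice, the highest being low triglyceride replicates 3 and 8, at 70.1 and 63.1. The median difference of the 4 was -0.51, with Jchain, of plasma cells, differing by -1.84 (limma adjusted p = 0.795). Without these 2 mice the difference of Reg3b between the groups was 1.01 and that of Reg3d -0.91. The 7 fat genes summed to 34.5 to 42.2 in high and 33.1 to 44.9 in low triglyceride mice. The part of these cells in the differences of the Reg genes was not tested.

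For each member the genes of most similar pattern over the 16 mice were named from 6404 genes. For Reg2 this was Itih4, an acute phase protein of the inter-alpha-trypsin inhibitor family, with an r of 0.814 and a rho of 0.759. Reg3d was most like Vapb, with an r of 0.818 and a rho of 0.691. Reg3b was most like Tardbp, an RNA-binding protein, with an r of 0.760 and a rho of 0.783. Reg1 was closest to Vcpip1 (r = 0.859) and Rab11fip2 (r = 0.845, rho = 0.900), and Reg3a to Plpp3, a lipid phosphatase (r = 0.724, rho = 0.710). For Reg3g the first gene, Slc22a18, had an r of 0.767 but a rho of 0.248, and an r of 0.073 without high triglyceride replicate 7. The 5 genes closest to Reg3g had r from -0.462 to 0.280 without that mouse, the highest in Reg3g. These are the highest of many correlations and are given as a description.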

How the data were processed

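Log2 expression values of 64 arrays (4 tissues of 16 F2 mice, 8 high and 8 low triglyceride) were used as deposited by the authors, who made them from Affymetrix arrays with gcRMA; its version is not given in the sources used here. The lowest gcRMA value is not the same in the 4 tissues, and levels were tested inside each tissue. Trait and genotype values could not be matched to these mice and were not analysed here. Of 45101 probe sets, 64 controls were left out, and of the 45037 tested 34945 had 1 gene symbol, 932 several and 9160 none in the platform annotation. Arrays give no depth, and the number of mice limits the precision. That annotation names 1 gene for each probe set of the Reg genes, and cross-hybridization between these related genes was not tested.

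High and low triglyceride mice were compared with limma (lmFit, eBayes) over all 45037 probe sets with Benjamini-Hochberg adjustment at 0.05, and single values with the exact permutation test over 12870 splits. Relations across mice used 100000 resamples. Genes named are the 6 Reg genes, the 5 genes of highest r with each over 16 mice (mean log2 of at least 4), and genes of the lists of cell types and pathways at their extremes. The Reg genes and the lists were chosen with earlier results of these data known. Sequences are from RefSeq, GRCm38.p6. The labels give 1 mouse to each replicate number within a group, and no number pairs mice of the groups. Alternatives were quantile normalization, a mean log2 of at least 4, array weights, a replicate block, 1 fit over all tissues, an intensity trend, the scores as covariates, each array left out, and, added after the data were seen, both low triglyceride replicates 3 and 8 left out, high triglyceride replicate 8 left out of relations, and the differences between members. The scripts, tested on simulated data, ran in R 4.3.3 with limma 3.58.1 and in python 3.11.15 with pandas 2.3.3, matplotlib 3.10.9, scipy 1.17.1 and numpy 2.4.6.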

Additional observations from a re-analysis of the deposited data

Results flagged for a closer look

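Within groups of 8 mice, the highest and lowest arrays were set against the rest of their group by Dixon's 95% criterion, which flags about 1 in 20 groups by chance. In the pancreas, Reg2 of high triglyceride replicate 8 was 7.49 and the next mouse of its group 12.13, a gap of 0.690 of the range of the group. The same mouse was the lowest of all 16 in Reg3a, Reg3b, Reg3d and Reg3g.

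Outside the pancreas 12 further values stood apart from groups that were otherwise at or near the lowest value of the tissue, so a small value above it was enough. The largest was Reg1 in adipose tissue, at 3.78 in low triglyceride replicate 4. In liver, Reg3b was 2.47 in high triglyceride replicate 8 and 2.36 in low triglyceride replicate 7, and Reg2 was 2.32 in low triglyceride replicate 1. In muscle, Reg1 was 2.58 in high triglyceride replicate 4 and 2.60 in low triglyceride replicate 3, Reg2 was 2.30 in high triglyceride replicate 3 and 2.41 in low triglyceride replicate 7, Reg3b was 2.35 in low triglyceride replicate 5 and Reg3g 2.40 in low triglyceride replicate 3. In adipose tissue, Reg3d was 2.30 in high triglyceride replicate 8 and Reg3b 2.25 in low triglyceride replicate 1.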

How the results depend on the processing

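No probe set of the pancreas was called except in 1 fit over all 64 arrays, with 39 calls, and without high triglyceride replicate 2, with 1 call, so that leaving out 1 array gave 0 to 1. In the fit over 64 arrays Reg3b, at 1.22, was called (limma adjusted p = 0.0198), and in no other alternative was a member called. Leaving out 1 array gave differences of 0.99 to 1.60 for Reg3b, -1.004 to -0.58 for Reg3d, 0.41 to 1.36 for Reg3g, 0.30 to 1.25 for Reg2, 0.003 to 0.051 for Reg1 and -0.48 to 0.32 for Reg3a, which has no settled sign. Reg1 was -0.000927 after quantile normalization, -0.014 with array weights, whose fit stopped before it converged, and -0.00223 with the acinar score as a covariate. Array weights gave 0.16 for Reg2, and the islet score as a covariate 0.21 for Reg2, 0.52 for Reg3g and -0.88 for Reg3a. The replicate numbers did not pair the mice (correlations of deviations from -0.295 to 0.193), and a replicate block called 0 probe sets and changed no call. The contrast of Reg3b minus Reg3d was 1.91 to 2.18 with 1 array left out.

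With the acinar score the sign turned for Reg1 without the 2 farthest mice (-0.089), within high triglyceride mice (-0.415) and after quantile normalization (-0.515, permutation p = 0.0406), for Reg3g in the same alternatives (-0.082, -0.355 and -0.107), for Reg3b within high triglyceride mice (-0.580, and -0.162 without their replicate 8), for Reg2 (0.062), Reg3a (0.284) and Reg3d (0.482) within low triglyceride mice, and for Reg3a with the median z-score (0.126). With the islet score it turned within high triglyceride mice for Reg1 (-0.037) and Reg3b (-0.105, and -0.015 without their replicate 8), and without the 2 farthest mice for Reg3d (-0.191). The r of Reg3a with the islet score had a permutation p above 0.05 without the 2 farthest mice (0.415), within high triglyceride mice (0.542, and 0.685 without their replicate 8) and with list genes of a mean of at least 8 (0.457), and that of Reg3g passed after quantile normalization (0.538). The pairs of members with an r of at least 0.5 were 5 of 15 without high triglyceride replicate 8.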
